A study of Mus musculus with 2 samples.

Results

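The genes described are 10 secreted members of the WNT pathway: the WNT ligands Wnt4, Wnt5a, Wnt5b and Wnt10b, and the secreted WNT inhibitors Sfrp1, Sfrp2, Sfrp4, Dkk2, Dkk3 and Wif1. They were chosen by name, and all 10 of them were found among the 21905 genes listed for both libraries. The cells came from femurs and tibias of female mice aged 12 weeks, which had received vehicle (Veh) or the DNA-damaging chemotherapy drug doxorubicin (Doxo, 10 mg/kg) 96 h before, and were profiled with 3′ droplet single-cell libraries. Doxo was the only labelled difference between the groups, no allele or transgene was labelled in either, and the strain and the number of mice behind a library were not given. Cells bearing CD45, CD71 or Ter119 had been sorted out, and the labels name CD31 as well. Each condition had 1 library, so Veh and Doxo were compared without a test, cells did not count as replicates, and every interval given covers counting error alone, at 95%.

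WNT ligands are lipid-modified proteins that leave the cell with the help of the carrier Wls and bind Frizzled receptors. With the co-receptors Lrp5 and Lrp6 they stabilise β-catenin, and with others such as Ror2 they act without it. In bone, β-catenin signalling in the osteoblast lineage favours bone formation and restrains bone resorption. The SFRP proteins carry a Frizzled-like domain that binds WNTs outside the cell, Wif1 binds WNTs through a domain of its own, and Dkk2 binds Lrp5 and Lrp6. Dkk3 is a divergent member of the Dickkopf family whose part in WNT signalling is less settled.

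In the GENCODE M21 annotation on GRCm38, every one of the 10 symbols has 1 gene ID. The ligand Wnt4 lies at chr4:137277489-137299726 on the forward strand, and Wif1 at chr10:121033960-121100650, also forward. Sfrp1 (chr8:23411502-23449632) and Sfrp4 (chr13:19623104-19632994) are forward genes too. Annotated genes on the opposite strand overlap Wnt5a (Gm2670), Wnt5b (Fbxl14) and Sfrp2 (Gm26771). RefSeq promoter windows on GRCm38.p6 were at hand for 6 of the 10 genes, with 8 start sites. Those of Wif1 and Dkk2 are shown, being the genes with the most UMIs (unique molecular identifiers, each standing for 1 captured RNA molecule) and with the narrowest range of classes, and they stop before the first annotated base of the gene. Capitals mark the letters TATAAA or their reverse complement TTTATA, found in the 250 bases before the start in 12.4% of all 32851 windows and in 2 of these 8. The Dkk2 match begins 32 bases before the RefSeq start and that of Wif1 232 bases before it. The forward windows are chr10:121033754-121033959 for Wif1, with 61.7% G and C, and chr3:132085042-132085291 for Dkk2, with 55.6%.
Wif1: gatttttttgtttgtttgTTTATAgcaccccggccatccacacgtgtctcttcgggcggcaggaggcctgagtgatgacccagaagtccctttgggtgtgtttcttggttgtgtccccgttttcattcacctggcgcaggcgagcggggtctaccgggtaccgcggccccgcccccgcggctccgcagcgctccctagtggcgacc
Dkk2: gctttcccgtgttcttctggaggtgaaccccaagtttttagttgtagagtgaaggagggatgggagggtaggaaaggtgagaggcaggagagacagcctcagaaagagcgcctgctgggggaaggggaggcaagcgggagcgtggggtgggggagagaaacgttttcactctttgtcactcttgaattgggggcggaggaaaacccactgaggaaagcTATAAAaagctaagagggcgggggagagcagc
The letters CTTTGA or TCAAAG, the core of the TCF/LEF motif through which β-catenin acts, were in 13.8% of all windows and in 1 of the 8, a start of Wnt5b.

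The cells, 2488 per library, held 24859695 UMIs in Veh and 20792012 in Doxo, and 4 cell barcodes occurred in both libraries. They were clustered, and clusters were named from marker genes into 6 classes, called CAR-like (Cxcl12-abundant reticular cells, the adipocyte-lineage stroma of marrow), bone and cartilage fibroblast-like, arteriolar and endosteal fibroblast-like, osteoblast-like, chondrocyte-like and endothelial-like. All 8 listed markers stood out in the CAR-like, chondrocyte-like and endothelial-like classes, 7 of 8 in arteriolar and endosteal fibroblast-like cells, and 5 of 8 in the bone and cartilage fibroblast-like and osteoblast-like classes. One cluster, led by Clic5, Tmem196 and Rab37, fell short of the naming rule for every marker list and stayed unnamed. The members are not markers of any class, but 8 of them were among the 2000 variable genes behind the clusters, so levels across classes are descriptions. The median depth of a cell ran from 2930 UMIs in osteoblast-like cells of Doxo to 19476 in chondrocyte-like cells of Veh, so shares of cells with a UMI are also given after thinning each cell to 2000 UMIs. Levels are counts per 1000000 (CPM), the UMIs of a gene scaled to 1000000 UMIs of its class.

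Of the 4 ligands, Wnt4 was the most widely found and was concentrated in 3 classes. In chondrocyte-like cells Wnt4 stood at 185.6 CPM in Veh (95% interval 173.7 to 198.1; 902 UMIs) and 123.8 CPM in Doxo (111.8 to 136.9; 384 UMIs). CAR-like cells followed at 129.3 CPM in Veh (115.6 to 144.2) and 112.0 CPM in Doxo (101.0 to 123.9), so that the intervals of both classes met in Doxo but not in Veh. Osteoblast-like cells held 76.6 CPM in Veh and 34.9 CPM in Doxo, on 61 and 17 UMIs. Both fibroblast classes stayed between 6.55 and 10.7 CPM, and endothelial-like cells at 12.8 and 31.4 CPM on 9 and 11 UMIs. After thinning, 28.2% and 17.4% of chondrocyte-like cells had a Wnt4 UMI in Veh and Doxo, against 20.5% and 18.8% of CAR-like cells and 5.21% and 6.56% of endothelial-like cells.

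The other ligands were sparse, each with under 500 UMIs in both libraries together. Wnt5a, which mostly signals without β-catenin, had 457 UMIs in all and was highest in arteriolar and endosteal fibroblast-like cells, at 31.0 CPM in Veh (25.9 to 36.9) and 27.3 CPM in Doxo (20.6 to 35.4). Its next class differed between the libraries: chondrocyte-like cells in Veh at 11.1 CPM, and CAR-like cells in Doxo at 21.5 CPM (16.8 to 27.1), an interval that met that of the leading class. Wnt5b, a close relative, was highest in chondrocyte-like cells, at 22.8 CPM in Veh (18.8 to 27.5) and 21.3 CPM in Doxo (16.5 to 27.1). Both orders depended on how cells were assigned. With cells gated on markers in place of clusters, osteoblast-like cells were highest for both genes, on few UMIs. Wnt5a stood there at 38.9 and 22.1 CPM in Veh and Doxo (38 and 15 UMIs). Arteriolar and endosteal fibroblast-like cells held 17.9 and 14.4 CPM of it (23 and 8 UMIs). Wnt5b stood at 22.5 and 17.7 CPM in osteoblast-like cells (22 and 12 UMIs). Chondrocyte-like cells held 16.0 and 12.6 CPM of it (62 and 35 UMIs). No intervals were computed for these gated levels. Wnt10b, a ligand of the β-catenin branch known to favour osteoblasts over adipocytes, was the rarest with 177 UMIs. It was highest in arteriolar and endosteal fibroblast-like cells, at 14.1 CPM in Veh (10.7 to 18.2) and 16.6 CPM in Doxo (11.5 to 23.2). CAR-like cells held 0 Wnt10b UMIs in Veh, with an upper limit of 1.47 CPM, and 1 in Doxo.

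**Figure D1:**
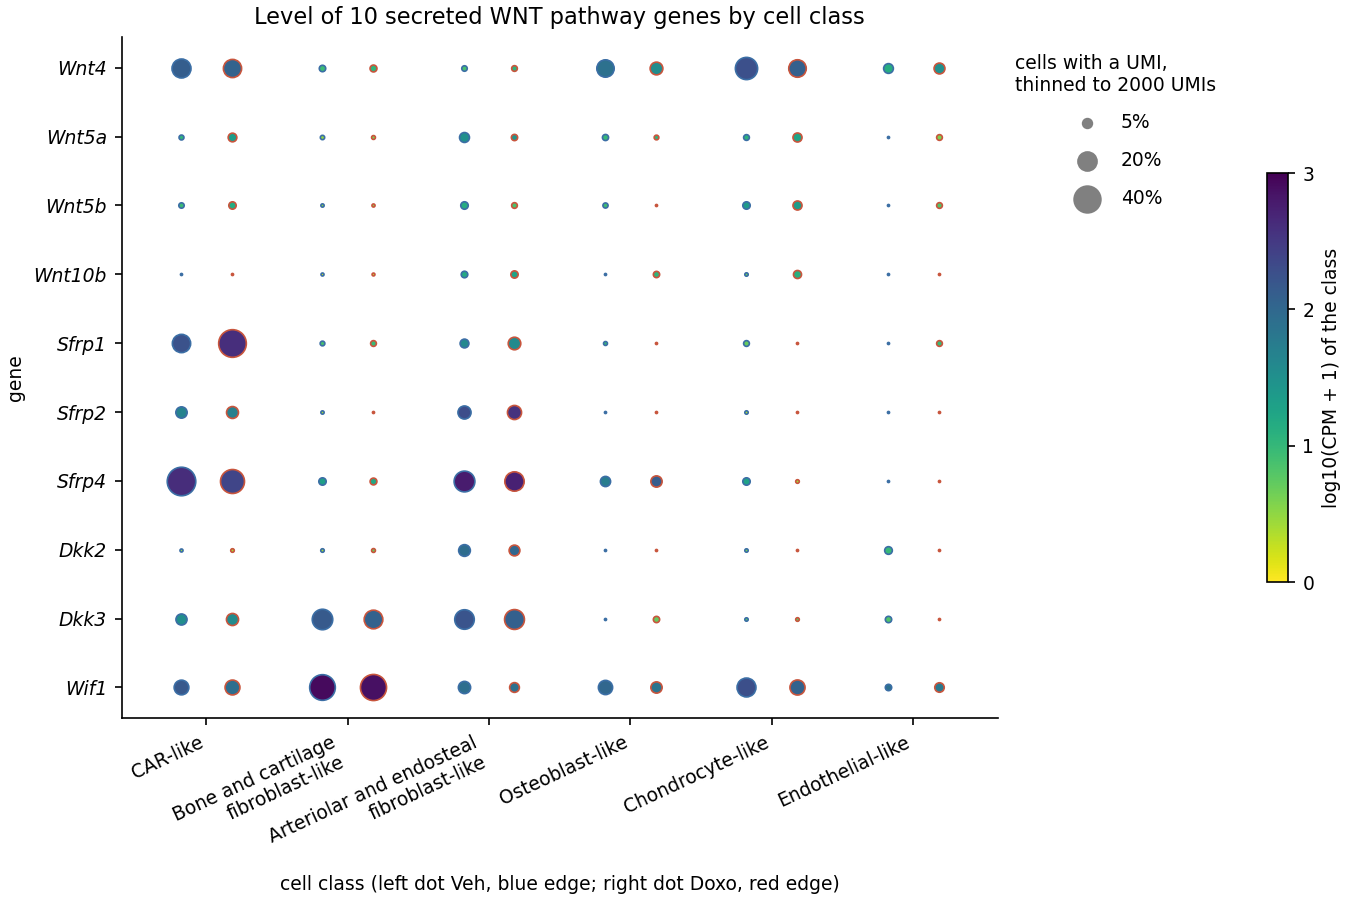
Level of the 10 genes by class: rows are genes, columns the 6 named classes with Veh on the left (blue edge) and Doxo on the right (red edge), colour gives log10(CPM + 1) of the class, and dot area the share of cells with a UMI after thinning to 2000 UMIs. The darkest dots are Wif1 in bone and cartilage fibroblast-like cells (827.5 and 757.3 CPM), and the Sfrp1 dot of CAR-like cells is larger in Doxo than in Veh.

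By cluster, Sfrp1 was highest in CAR-like cells, and Sfrp4 and Sfrp2 in arteriolar and endosteal fibroblast-like cells. Sfrp1, whose loss in mice is known to raise trabecular bone mass, was highest in CAR-like cells, at 176.7 CPM in Veh (160.6 to 193.9) and 399.4 CPM in Doxo (378.3 to 421.4). That was 4.61 times the next class, arteriolar and endosteal fibroblast-like cells, in Veh and 10.8 times in Doxo. Sfrp4, whose loss thins cortical bone in mice and humans, was highest in arteriolar and endosteal fibroblast-like cells at 583.2 CPM in Veh (560.1 to 607.0) and 530.7 CPM in Doxo (499.7 to 563.2). CAR-like cells came next with 414.6 CPM (389.8 to 440.5) and 244.0 CPM (227.6 to 261.4), outside those intervals. The share of cells went the other way: after thinning, 46.6% and 32.9% of CAR-like cells had an Sfrp4 UMI, against 24.6% and 21.3% of arteriolar and endosteal fibroblast-like cells. Single fibroblast-like cells held up to 138 Sfrp4 UMIs in Veh and 169 in Doxo, and CAR-like cells at most 23 and 21.

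Few cells held Sfrp2. In arteriolar and endosteal fibroblast-like cells it reached 202.5 CPM in Veh (189.0 to 216.7) and 374.3 CPM in Doxo (348.3 to 401.7), with UMIs in only 12.1% and 13.3% of the cells. The tenth of those cells with most of it held 99.0% of its UMIs in each library, 42 cells in Veh and 25 in Doxo. When the bone cells were divided further, at a resolution of 0.4 and without WNT genes among the variable genes, Sfrp2 lay mainly in a subcluster led by Tnn, Lum and Ptprz1. There it stood at 459.4 CPM in 159 Veh cells and 852.0 CPM in 98 Doxo cells, with 708 of its 1119 UMIs in Veh and 655 of its 972 in Doxo. By cluster, 67.7% of these cells belonged to the arteriolar and endosteal fibroblast-like class and 0 to the osteoblast-like class, but by its own markers the subcluster took the name osteoblast-like, with 5 of 8 markers higher (Col1a1, Ibsp, Sp7, Alpl and Runx2). Its osteoblast markers summed to 25334.5 CPM in Veh and 19529.9 CPM in Doxo, against 195941.3 and 238369.7 CPM in the osteoblast-like class, and its arteriolar and endosteal fibroblast markers to 1160.2 and 1479.0 CPM. Most Sfrp2 thus lay in cells whose class depended on how finely they were divided. Without this subcluster, the level in arteriolar and endosteal fibroblast-like cells of Veh was 43.7 CPM. With marker-gated cells it was 86.3 CPM in Veh and 55.8 CPM in Doxo, against 53.2 and 132.4 CPM in osteoblast-like cells, so that the higher class differed between the libraries. The neighbouring subcluster led by Scg3 and Hmcn2 held 43.4 and 73.8 CPM of Sfrp2. Among the subclusters it had the highest levels of Sfrp4 (765.0 and 663.9 CPM) and Dkk2 (102.4 and 115.3 CPM). Wnt5a was also higher in the Tnn and Lum subcluster, at 59.0 and 45.5 CPM against 15.3 and 18.8 CPM in the Scg3 subcluster, and without the Tnn and Lum subcluster its level in arteriolar and endosteal fibroblast-like cells of Veh was 15.5 CPM.

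Dkk2 was nearly restricted to arteriolar and endosteal fibroblast-like cells, at 85.1 CPM in Veh (76.4 to 94.5) and 101.9 CPM in Doxo (88.5 to 116.6). In the other 5 classes Dkk2 ranged from 0 to 8.56 CPM. Its distant relative Dkk3 was broad. In arteriolar and endosteal fibroblast-like cells it stood at 163.0 CPM in Veh (150.9 to 175.8) and 123.8 CPM in Doxo (109.0 to 140.0), and bone and cartilage fibroblast-like cells had 142.4 CPM (135.5 to 149.5) and 117.0 CPM (110.6 to 123.6). The intervals of the 2 classes did not meet in Veh and met in Doxo, but the order did not hold under every setting. Bone and cartilage fibroblast-like cells were higher in Veh after thinning (155.2 against 140.4 CPM), at resolution 0.2 (178.4 against 163.5 CPM) and with marker-gated cells (187.0 against 110.4 CPM). Dkk3 was lowest in chondrocyte-like, osteoblast-like and endothelial-like cells, at 6.28 CPM or less.

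Wif1 had 20135 UMIs, of which 9306 in Veh and 8201 in Doxo lay in bone and cartilage fibroblast-like cells. There it stood at 827.5 CPM in Veh (810.8 to 844.5) and 757.3 CPM in Doxo (741.0 to 773.8), 4.40 and 6.54 times the next class, chondrocyte-like cells. Within these fibroblast-like cells Wif1 and Dkk3 were highest in different subclusters. The subcluster led by Msmp and Rbp4 held 1614.4 and 1365.0 CPM of Wif1 but 67.6 and 61.7 CPM of Dkk3. In the subcluster led by Npy, Angptl7 and Slurp1 the values were 467.6 and 382.6 CPM of Wif1 and 205.0 and 177.2 CPM of Dkk3, so each order was the same in both libraries. Since Wif1 was among the leading genes of the Msmp subcluster and clusters come from the same cells, this is a description. A further subcluster led by Chodl and Ptx4 held 188 Wif1 UMIs in 62 Veh cells and 6 in 41 Doxo cells, with 126 of the 188 in 1 cell.

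**Figure D2:**
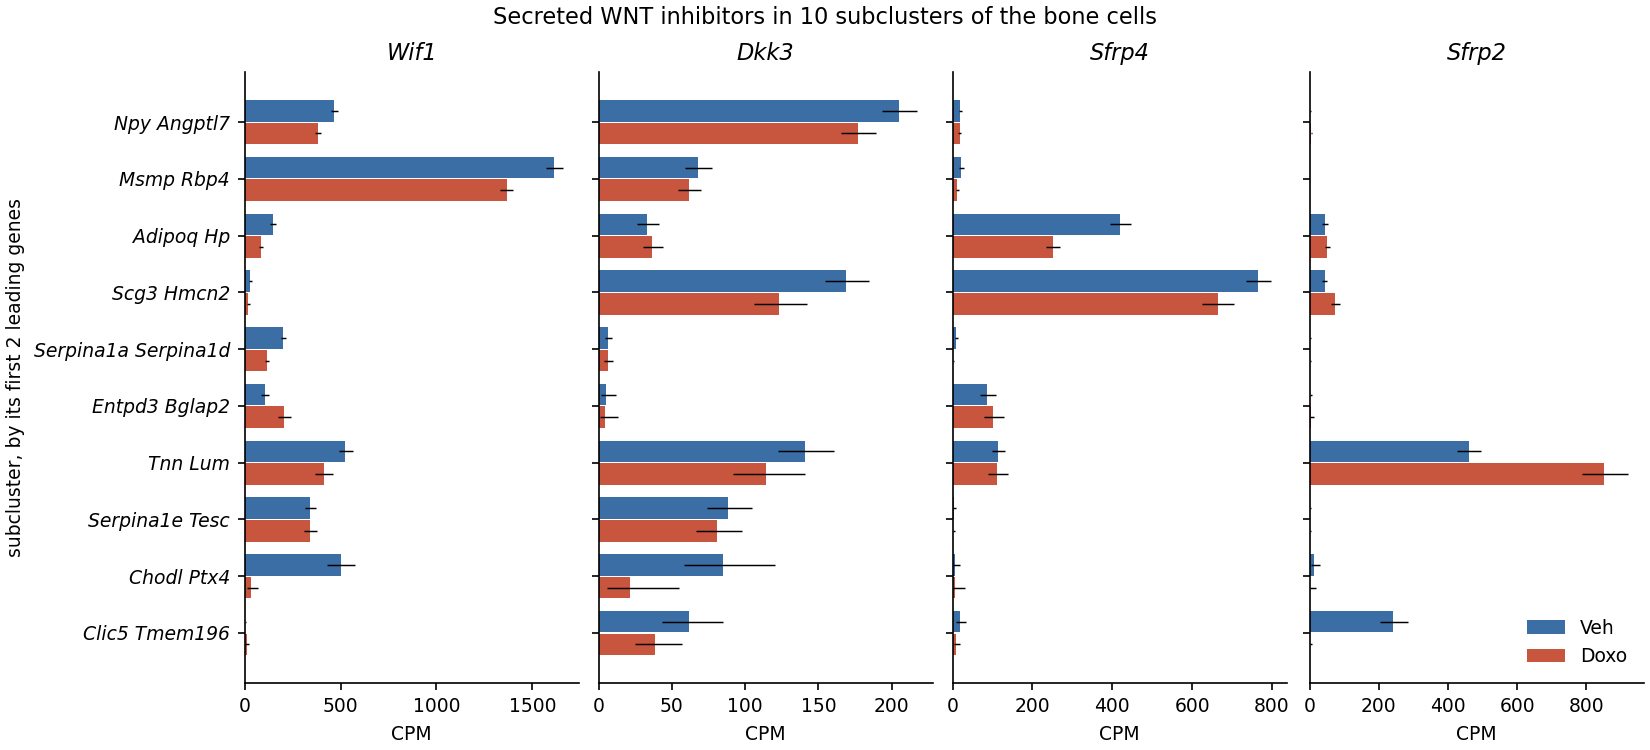
Level in CPM of Wif1, Dkk3, Sfrp4 and Sfrp2 in the 10 subclusters of the bone cells, each named by its first 2 leading genes, in Veh (blue) and Doxo (red); error bars are exact 95% Poisson intervals for counting error. Wif1 peaks in the Msmp and Rbp4 subcluster, Dkk3 in the Npy and Angptl7 subcluster, Sfrp4 in the Scg3 and Hmcn2 subcluster and Sfrp2 in the Tnn and Lum subcluster, in both libraries.

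Doxo was then set against Veh for each gene within each class. A pair of gene and class was measured where it had at least 20 UMIs over both libraries, and it is counted where the log2 ratio of Doxo to Veh was at or below -1 or at or above 1. Of the 60 pairs, 41 were measured: 3 were at least 2-fold lower in Doxo, where 4.26% of all 58786 measured pairs of gene and class were, and 6 were at least 2-fold higher, against a background of 3.16%. The median log2 ratio over the 41 pairs was -0.05. Most of the 9 pairs rest on few UMIs, and Sfrp1 in CAR-like cells is the only one with over 200. Across classes the median log2 ratio of all genes measured lay between -0.09 and 0.06, and the classes held fewer UMIs per cell in Doxo than in Veh except for the CAR-like class.

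**Figure D3:**
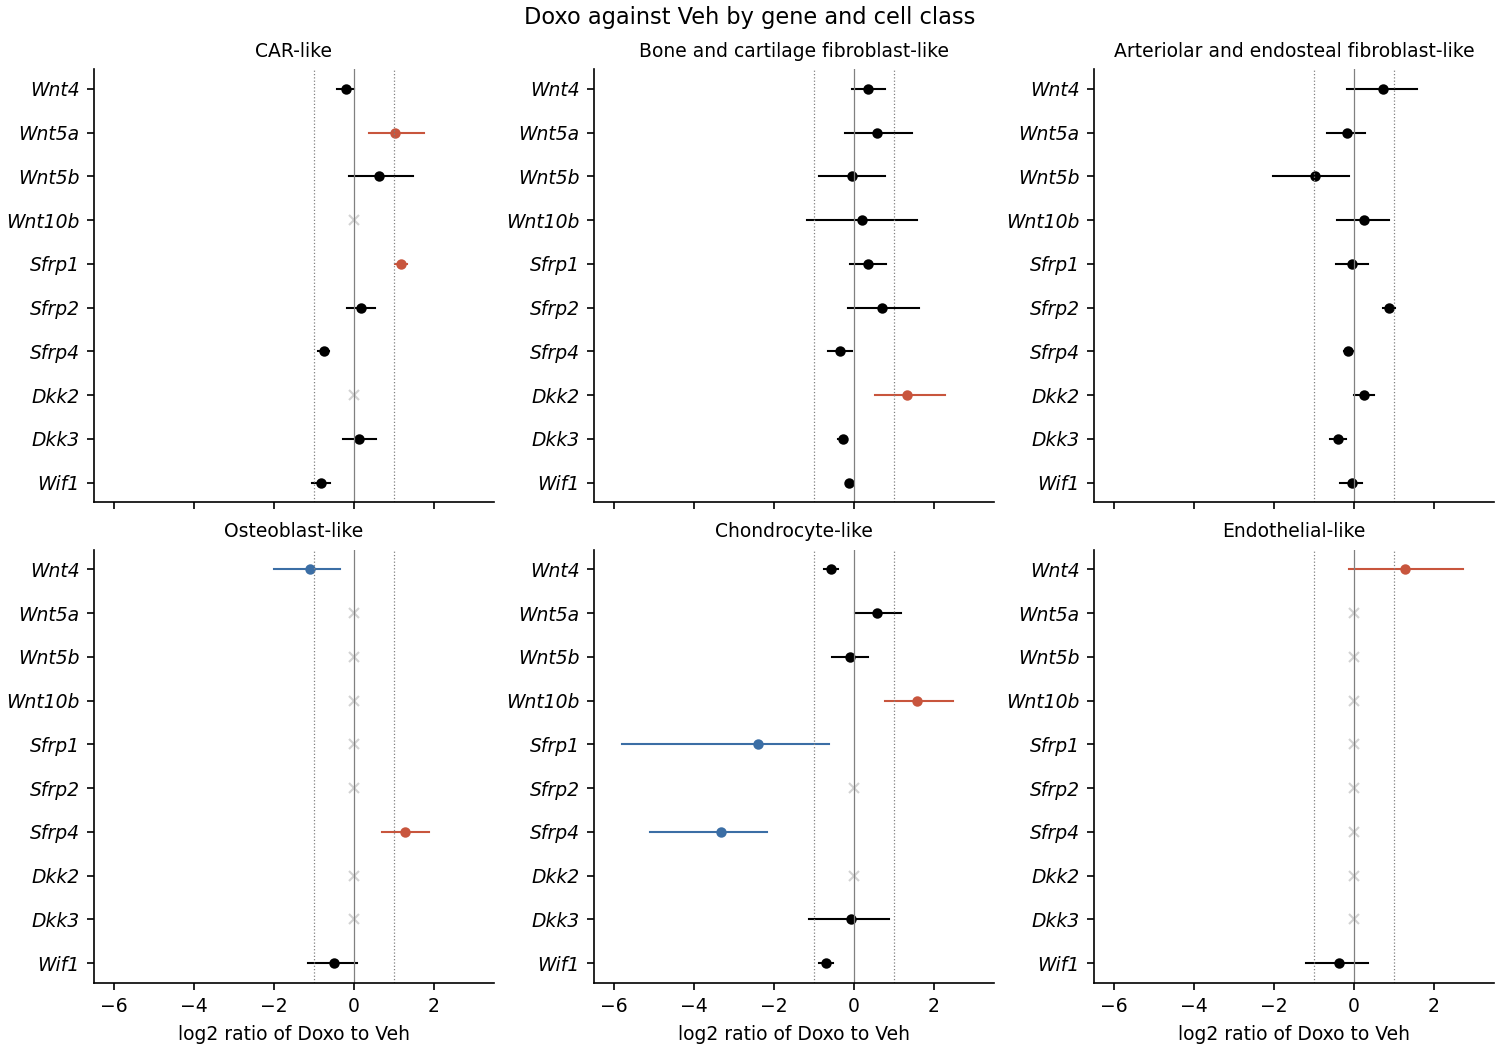
Log2 ratio of Doxo to Veh for each gene in each class, with its exact 95% conditional binomial interval for counting error; red points are at or above 1, blue points at or below -1 (dotted lines), and grey crosses at 0 mark genes with under 20 UMIs in the class, which have no ratio. Sfrp1 in CAR-like cells (1.18) has the narrowest interval of the coloured points, and Sfrp4 in chondrocyte-like cells (-3.33) is the lowest.

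In CAR-like cells (369 in Veh, 427 in Doxo) the SFRP genes moved apart. Sfrp1 was higher in Doxo, from 444 UMIs to 1337, a log2 ratio of 1.18 (1.02 to 1.33). The share of cells with an Sfrp1 UMI was 46.1% in Veh (40.9 to 51.3) and 72.1% in Doxo (67.6 to 76.3), and 19.0% against 43.8% after thinning, while the median depth of these cells was 6226 and 7310 UMIs. Cells with over 10 Sfrp1 UMIs were 2 of 369 in Veh and 23 of 427 in Doxo. Sfrp4 was lower, from 1042 UMIs to 817, a log2 ratio of -0.76 (-0.90 to -0.63). The share of cells with over 10 Sfrp4 UMIs was 5.15% in Veh and 0.937% in Doxo. Sfrp2 had a log2 ratio of 0.17 (-0.18 to 0.53), an interval that includes no difference.

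**Figure D4:**
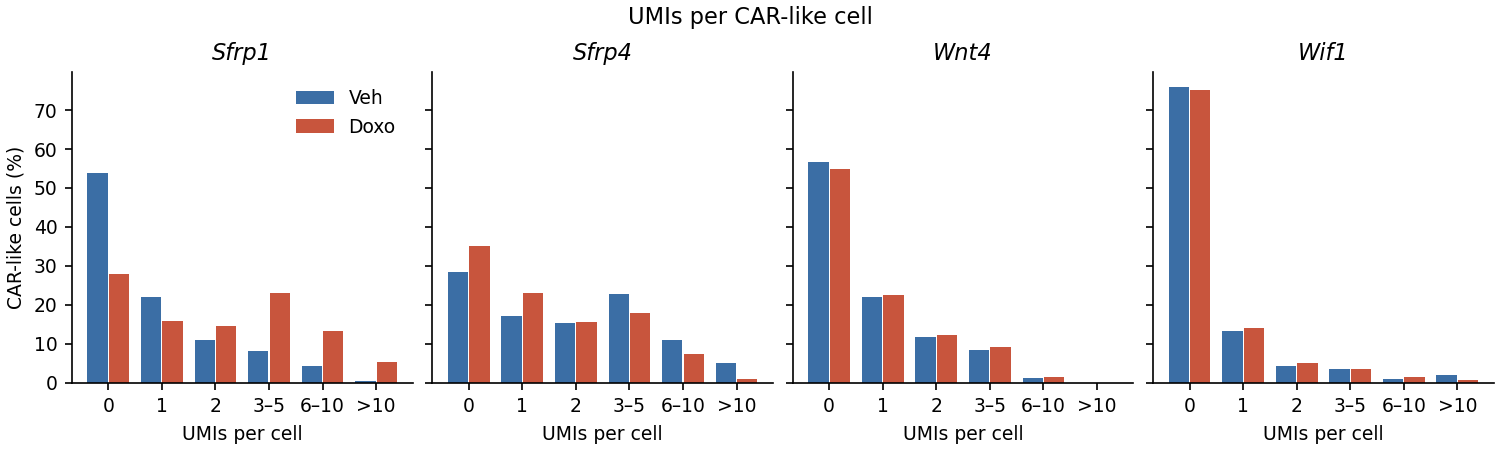
Share of CAR-like cells, in percent, by the number of UMIs of Sfrp1, Sfrp4, Wnt4 and Wif1 per cell, in 369 Veh cells (blue) and 427 Doxo cells (red), before thinning. Cells without an Sfrp1 UMI are 53.9% in Veh and 27.9% in Doxo, while the Wnt4 bars of the 2 libraries nearly coincide.

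Among the ligands of CAR-like cells, Wnt5a went from 26 UMIs spread over 23 cells in Veh to 72 spread over 59 cells in Doxo, with a log2 ratio of 1.04 (0.39 to 1.76). Wnt4, the ligand with the most UMIs there, had a log2 ratio of -0.21 (-0.43 to 0.01). Summed over the 4 ligands, CAR-like cells held 148.0 CPM in Veh and 147.0 CPM in Doxo, and summed over the 6 inhibitors 818.4 and 814.3 CPM. These sums of members were thus nearly level while Sfrp1 was higher and Sfrp4 and Wif1 (log2 ratio -0.83, -1.06 to -0.60) were lower. They do not stand for all secreted WNT inhibitors. Igfbp4, described below and not in the sums, stood at 3518.7 CPM in Veh and 7956.7 CPM in Doxo. In this class 2 of 8 measured members were at least 2-fold higher, where 3.84% of all genes were, and 0 of 8 were at least 2-fold lower, where 3.32% were.

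The CAR-like cells fell into 3 subclusters whose shares differed between the libraries, and the values were read within each. One, led by Fabp4 and Slc36a2, held 185 Veh and 333 Doxo cells; another, led by the cytokine genes Ccl7 and Ccl2, held 173 and 80. Sfrp1 was higher in Doxo in both, with a log2 ratio of 0.71 (0.52 to 0.91) in the first and 1.29 (0.98 to 1.61) in the second. Without the cytokine-led subcluster the class as a whole had a ratio of 0.80 for Sfrp1 and 0.47 for Wnt5a, both under the 2-fold mark. Sfrp4 was lower in both, at -0.78 (-0.97 to -0.59) and -0.46 (-0.70 to -0.23). Wif1 was lower in the first, at -0.90 (-1.22 to -0.58), and at -0.06 (-0.74 to 0.57) in the second. The last subcluster, led by Msmp, Npy and Slurp1, which are leading genes of bone and cartilage fibroblast-like subclusters, had only 11 and 14 cells, with a median of 14017 and 20823.5 UMIs per cell. It held 158 of the 372 Veh UMIs of Wif1, 101 of them in 1 cell, and without it the Wif1 ratio of the class was -0.34. Marker lists of other cells also differed in CAR-like cells: 8 osteoblast markers summed to 8358.8 CPM in Veh and 2520.8 CPM in Doxo, 8 bone and cartilage fibroblast markers to 2743.3 and 1933.8 CPM, 8 arteriolar and endosteal fibroblast markers to 149.2 and 67.5 CPM, 6 pericyte or smooth muscle markers to 149.2 and 331.6 CPM, and 3 erythroid markers to 372.8 and 1.79 CPM. The 8 CAR markers themselves summed to 38770.5 CPM in Veh and 46957.7 CPM in Doxo. The erythroid list was lower in Doxo in each of the 6 classes. The 6 immune markers summed to 493.8 CPM in Veh, with 967 of 1051 S100a8 UMIs in 1 cell, and 57.9 CPM in Doxo. The part of these lists in the ratios was not tested. Without the cell with most Sfrp1 UMIs in each library, the Sfrp1 ratio was 1.23.

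Chondrocyte-like cells (247 in Veh, 205 in Doxo) held less of both of their leading members in Doxo. Wnt4 had a log2 ratio of -0.58 (-0.76 to -0.41) and Wif1 of -0.70 (-0.88 to -0.52), from 915 UMIs to 359. The ratio of Wif1 was -0.08 when cells were gated on markers in place of clusters. Sfrp4 went from 86 UMIs in 22 cells to 5 UMIs in 5 cells (-3.33, -5.11 to -2.18), and Sfrp1 from 20 UMIs to 2 (-2.39, -5.81 to -0.63). With marker-gated cells the ratios were -1.05 for Sfrp4 and 0.17 for Sfrp1, so the lower Sfrp1 was not seen there. Dkk2 had 16 UMIs in Veh, 15 of them in 1 cell, and 0 in Doxo. These 3 genes belong mainly to CAR-like and arteriolar and endosteal fibroblast-like cells, whose marker lists were lower in the chondrocyte-like cells of Doxo, as were several others: 128.4 CPM in Veh (7 of 8 markers with a UMI) and 51.0 CPM in Doxo (8 of 8) for the fibroblast list, and 531.2 and 354.7 CPM (8 of 8 in each) for the CAR list. The osteoblast list went from 11587.9 to 4233.5 CPM, the bone and cartilage fibroblast list from 11180.5 to 7423.1 CPM, the erythroid list from 515.3 to 1.93 CPM, and the chondrocyte list itself from 40079.0 to 29260.4 CPM. The part of such cells or of free RNA in the ratios was not tested. Wnt10b was higher, from 19 UMIs in 15 cells to 37 UMIs in 27 cells (1.59, 0.77 to 2.49). In all, 2 of 8 measured members were at least 2-fold lower, against 5.29% of all genes, and 1 was at least 2-fold higher, against 4.65%.

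In bone and cartilage fibroblast-like cells (1107 and 1358 cells) the abundant members differed little: Wif1 by a log2 ratio of -0.13 (-0.17 to -0.09) and Dkk3 by -0.28 (-0.39 to -0.18). Wif1 UMIs were found in 57.0% and 56.6% of the cells. The share with a Dkk3 UMI was 54.4% in Veh (51.4 to 57.3) and 42.4% in Doxo (39.8 to 45.1), and 23.9% against 19.8% after thinning. Dkk2 alone passed 2-fold, from 17 UMIs to 42 (1.33, 0.52 to 2.27), which is 1.51 and 3.88 CPM; with marker-gated cells its ratio was 0.06. So 1 of 10 measured members was at least 2-fold higher, where 1.33% of genes were, and 0 were at least 2-fold lower, where 3.46% were.

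In arteriolar and endosteal fibroblast-like cells (412 and 249 cells) 0 of 10 members were past 2-fold in either direction, where 3.78% of genes were lower and 2.02% higher. The widest differences were Wnt5b, with 53 UMIs in Veh and 13 in Doxo (-0.98, -2.02 to -0.13), and Sfrp2, with 835 and 768 UMIs (0.89, 0.74 to 1.03). A single Doxo cell held 241 of the Sfrp2 UMIs and a single Veh cell 117. Without these cells the ratio was 0.57, and the share of cells with a UMI was nearly level, so the Sfrp2 difference lay in few cells with many UMIs. With marker-gated cells, 127 and 66 in number, it turned to -0.61. Sfrp4, Sfrp1, Wif1 and Wnt5a had ratios between -0.18 and -0.04, Dkk3 was at -0.39 (-0.61 to -0.19), Dkk2 at 0.26 (0.00 to 0.51), Wnt10b at 0.25 (-0.42 to 0.87) and Wnt4 at 0.72 (-0.17 to 1.58). Several of these moved with the setting. Marker-gated cells gave -1.15 for Sfrp1, 0.93 for Wif1 (on 11 and 9 UMIs), -0.72 for Dkk2 and 1.21 for Wnt10b, and thinned cells gave 0.94 for Sfrp1 and -1.67 for Wnt5a (on 28 and 5 UMIs). Without the Tnn and Lum subcluster Wnt5a was at 0.34 and Sfrp2 at 0.77.

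Osteoblast-like cells (206 and 125 cells) were the shallowest, and 3 members were measured. Wnt4 was lower, with UMIs in 20.4% of Veh cells (15.1 to 26.5) and 10.4% of Doxo cells (5.65 to 17.1) and a log2 ratio of -1.10 (-2.0 to -0.34), or -3.08 on 27 and 1 UMIs under a stricter cell filter. Sfrp4 was higher, from 43 UMIs in 16 cells to 64 UMIs in 11 cells (1.28, 0.70 to 1.88), but with 20 principal components in place of 35 it had 11 and 3 UMIs and a ratio of -1.0. Wif1 had 80 and 34 UMIs (-0.51, -1.15 to 0.07), but its ratio was 0.67 with marker-gated cells and 0.94 with WNT genes left out of the variable genes. In the subcluster led by Entpd3 and Bglap2, also made without WNT genes, Wif1 had 103 and 137 UMIs and a ratio of 0.94. There 91 of the 137 were in 1 cell. By cluster, 1 of the 3 measured members was thus lower, against 7.49% of genes, and 1 higher, against 3.07%. Endothelial-like cells (103 and 69 cells) had 2 measured members: Wnt4 on 9 and 11 UMIs (1.28, -0.12 to 2.74), which counts as higher where 5.14% of genes were, and Wif1 on 55 and 21 UMIs (-0.37, -1.19 to 0.36), with 49 of the 55 in 1 cell. None was 2-fold lower, where 3.87% of genes were. Sfrp1, Sfrp2, Sfrp4 and Dkk3 had at most 4 UMIs there in either library.

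The rest of the pathway was read from a list of 77 other genes, 73 of them listed for these libraries. Of the 49 measured in CAR-like cells, 3 were at least 2-fold higher, where 3.84% of all genes were, and 3 at least 2-fold lower, where 3.32% were, with a median log2 ratio of 0.04 against 0.06 for all genes. Igfbp4, an IGF-binding protein that can also block WNT co-receptors, was higher with 8844 and 26637 UMIs (1.18, 1.14 to 1.21), and so in each of the 3 subclusters, at 1.08, 1.15 and 1.29. The receptor gene Fzd4 was higher with 134 and 425 UMIs (1.25, 0.97 to 1.54). Its ratio was 0.80 (0.46 to 1.18) in the largest subcluster, 1.32 (0.72 to 1.93) in the cytokine-led one and 0.96 (-0.17 to 2.37) in the last. Only the cytokine-led subcluster thus passed 2-fold for Fzd4. Frzb, another secreted WNT binder, had 17 and 54 UMIs (1.23, 0.45 to 2.13), but 46 of the 54 were in 1 cell. Ccn5, a WNT-induced matrix gene, was lower with 679 and 331 UMIs (-1.45, -1.64 to -1.26). Myc, a growth regulator and β-catenin target, had 830 and 209 UMIs (-2.40, -2.63 to -2.18), and there the subclusters disagreed: 598.2 and 158.4 CPM in the cytokine-led subcluster, and 12.0 and 37.3 CPM in the largest. The R-spondin receptor gene Lgr5 was the third of the lower genes, on 28 and 16 UMIs (-1.20, -2.21 to -0.28), with 13 of the 28 in 1 cell. Axin2, the common readout of β-catenin signalling, had 12 and 17 UMIs (0.07, -1.06 to 1.29), too few to show a difference.

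**Figure D5:**
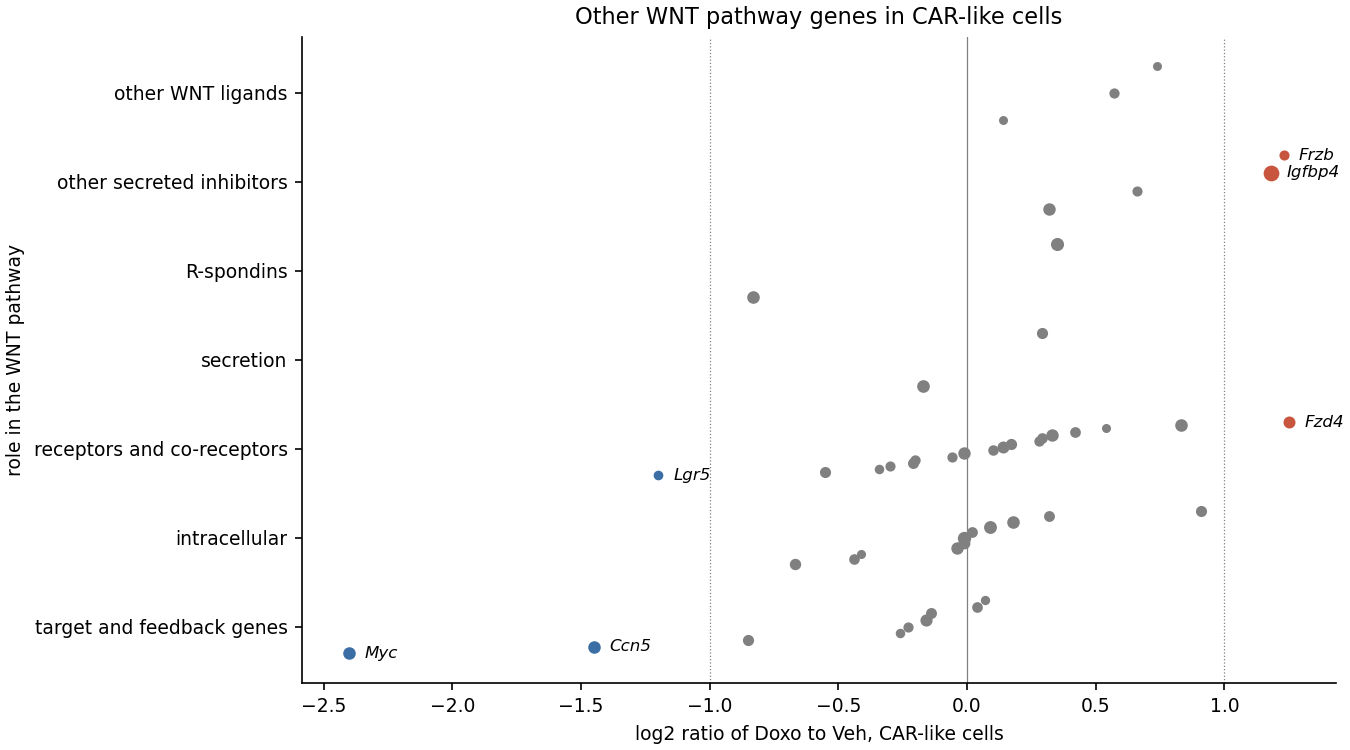
Log2 ratio of Doxo to Veh in CAR-like cells for the 49 measured genes of the wider WNT pathway, grouped by role; point size grows with the UMIs, red points are at or above 1 and blue points at or below -1, with their names. Most points lie between the dotted lines, and Myc (-2.40) is the lowest.

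Of 18 measured receptor and co-receptor genes in CAR-like cells, 1 was at least 2-fold higher, where 3.84% of all genes were, and 1 at least 2-fold lower, where 3.32% were. These were the Fzd4 and Lgr5 just given. Fzd1 (0.83) and Fzd8 (-0.55) came next in each direction. Lrp5 had a log2 ratio of 0.42 (-0.09 to 0.95), Lrp6 of 0.14 (-0.11 to 0.38), the carrier Wls of -0.17 (-0.34 to -0.01) and the R-spondin gene Rspo3, whose protein amplifies WNT signals, of 0.35 (0.22 to 0.49). Rspo2, the other measured R-spondin gene, ran the other way on 636 and 476 UMIs (-0.83, -1.01 to -0.66). Ror2 had 7 and 14 UMIs, Dkk1 had 4 and 2, and Sost, the osteocyte inhibitor sclerostin, had 0 in both. Sost was scarce throughout, with at most 8 UMIs in any class and library. Dkk1 was highest in osteoblast-like cells, at 18.8 and 39.0 CPM on 15 and 19 UMIs (1.04, 0.00 to 2.13). Rspo3 was highest in CAR-like cells at 274.5 and 350.7 CPM, with 60.3 and 69.0 CPM in chondrocyte-like cells. Lrp6 and Wls had ratios between -0.12 and 0.07 in both fibroblast classes and in chondrocyte-like cells, and Axin2 stood at 8.80 and 8.77 CPM in bone and cartilage fibroblast-like cells.

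Outside CAR-like cells, the list held few genes past 2-fold with at least 50 UMIs. Wnt16, a ligand known to protect cortical bone, was lower in bone and cartilage fibroblast-like cells with 111 and 30 UMIs (-1.82, -2.47 to -1.24), where 3 of 58 measured genes were lower, against 3.46% of all genes, and 0 higher, against 1.33%. The others were Lgr5 (30 and 11 UMIs, -1.35) and Rspo2 (15 and 6 UMIs, -1.20). In arteriolar and endosteal fibroblast-like cells, 3 of 53 were lower, against 3.78% of all genes, and 3 higher, against 2.02%. There the transcription factor gene Lef1 had 47 and 3 UMIs (-2.76, -5.29 to -1.33), with 25 of the 47 in 1 cell, the co-receptor gene Lrp4 87 and 18 (-1.23, -2.09 to -0.52), the feedback inhibitor Nkd1 47 and 10 (-1.17, -2.38 to -0.22), and Lgr5 38 and 45 (1.25, 0.60 to 1.91). The other higher genes, Wnt6 (1.01) and the WNT-inactivating enzyme gene Notum (1.80), had at most 17 UMIs in a library. Of 49 in chondrocyte-like cells, 4 were lower, against 5.29% of all genes, and 4 higher, against 4.65%. Rspo4 had 191 and 60 UMIs (-1.01, -1.47 to -0.60) and Ccn5 70 and 16 (-1.45, -2.36 to -0.68), and Wnt7b (-2.0) and Lgr6 (-1.27) were lower on 34 and 5 and on 24 and 6 UMIs. The receptor gene Fzd5 (1.07, on 23 and 31 UMIs) and the signal transducer gene Dvl2 (1.01, on 31 and 40) were higher, as were Axin2 on 12 and 22 UMIs (1.50, 0.45 to 2.67) and Sfrp5 on 5 and 18 UMIs (2.40, 1.01 to 4.28), with 11 of the 18 in 1 cell. In osteoblast-like cells 4 of 29 were lower, against 7.49% of all genes, and 1 higher, the Dkk1 given above, against 3.07%. The lower ones were Myc at 59 and 13 UMIs (-1.43, -2.46 to -0.59), Tnfrsf19 at 49 and 13 (-1.16, -2.21 to -0.30), Fzd1 at 19 and 3 (-1.77) and Fzd8 at 24 and 4 (-1.73). In endothelial-like cells 0 of 21 were lower, against 3.87% of all genes, and 1 was higher, against 5.14%, the WNT receptor gene Ryk, with 29 and 31 UMIs (1.10, 0.32 to 1.88).

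Counted per cell after thinning, a UMI of at least 1 of the 6 inhibitors was found more widely than one of the 4 ligands in CAR-like cells and in both fibroblast classes. In CAR-like cells 66.8% of Veh and 68.5% of Doxo cells had a UMI of some inhibitor, 23.0% and 23.6% of some ligand, and 15.1% and 15.6% of both. The share of cells with an inhibitor was 57.5% and 55.0% in bone and cartilage fibroblast-like cells, where one of the 4 ligands was found in 3.43% and 3.48%. WNT ligands outside the 10 genes do not enter these shares. In that class Wnt11 had 198 and 136 UMIs and Wnt9a 175 and 149, against 89 and 110 for Wnt4. In chondrocyte-like cells the order was the reverse, with a ligand in 30.7% and 27.9% and an inhibitor in 24.1% and 13.4%. The order differed between the libraries in the remaining named classes. Osteoblast-like cells had a ligand in 19.6% and 11.1% and an inhibitor in 16.5% and 16.2%. Endothelial-like cells had a ligand in 5.21% and 8.2% and an inhibitor in 7.29% and 6.56%. In endothelial-like cells 87.5% and 86.9% had none of the 10. The genes most alike in pattern were taken from 10694 genes with at least 200 UMIs, by Pearson's r of log2(CPM + 1) over the 6 classes in both libraries, 12 points that share libraries and clusters and carry no test. They were Higd1a (0.935), Sfrp5 (0.910) and Ptx4 (0.908) for Wif1, Pigh (0.958), Olfml2b (0.947) and Parp3 (0.945) for Sfrp4, and Uap1l1 (0.948), Radil (0.943) and Gas1 (0.942) for Dkk3. Sfrp5 is itself a secreted WNT inhibitor of the SFRP family.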

How the data were processed

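The authors deposited 1 table of log2 values for each library, with a row for every gene and a column for every cell. Cell Ranger had aligned the reads to GRCm38 and the submitters' processing notes also name Partek; versions and the annotation release were not given in the sources used here. Sums per cell showed 2 rounds of scaling to 1000000, each followed by a logarithm, which the methods do not describe. Inverting both rounds gave whole UMIs (within 0.05) for 99.94% of the values up to 50 UMIs in each library; 21 symbols did not come out whole, none a member. Median depth was 8693.0 UMIs per cell in Veh and 7347.5 in Doxo. The lowest cell had 1506 UMIs.

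The libraries were merged, with no integration step, in R 4.3.3 with Seurat 5.3.0 under the study's filters (200 to 10000 genes, 100 to 100000 UMIs, at most 10% mitochondrial UMIs, genes in at least 3 cells), with 2000 variable genes, 35 principal components and a resolution of 0.1. Endothelial-like cells were set aside and the rest were clustered again. A cluster took the name of the class with the largest share of its markers held by 10% or more of the cells and 1 or more log2 units higher than elsewhere, given 3 or more such markers, if its 10 leading genes did not go against it. Doublets were kept, and Scrublet in scanpy 1.11.5 marked only 0.362% of Veh and 0.121% of Doxo cells, so it cannot be said to have worked.

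UMIs were summed per class and library. Sums have exact Poisson intervals, shares exact binomial ones, and log2 ratios exact conditional binomial ones, the ratio being taken after adding 0.5 UMI to both sums. Thinning left out 199 of 4976 cells. Marker-gated cells, an alternative to clusters, had UMIs of at least 4 markers of a class and of at least 2 more than of any other class. Subclusters of CAR-like cells were taken at a resolution of 0.2. The inversion and intervals were tested on simulated data. Alternatives are in the closing section. The members, lists and rules were chosen with earlier results of these data known: the text names all members, pathway genes past 2-fold with at least 50 UMIs in a class, and 8 pathway genes whatever their values. Other pathway genes named (those with fewer UMIs, and Fzd1, Fzd8 and Rspo2 in CAR-like cells) and the subclusters were chosen after their values were seen. Computations used scipy 1.17.1, pandas 2.3.3 and numpy 2.4.6 under Python 3.11.15.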

Additional observations from a re-analysis of the deposited data

Results flagged for a closer look

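Sfrp1 and Sfrp4 stood out because their ratios went opposite ways in different classes, each with a counting interval on 1 side of 0. For Sfrp1 the log2 ratio of Doxo to Veh was 1.18 in CAR-like cells and -2.39 in chondrocyte-like cells, where it rests on 20 and 2 UMIs. For Sfrp4 it was 1.28 in osteoblast-like cells, on 43 and 64 UMIs, and -3.33 in chondrocyte-like cells, on 86 and 5. These differences between classes were not tested, since each condition has 1 library.

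The unnamed cluster led by Clic5, Tmem196 and Rab37, with 44 Veh and 55 Doxo cells, entered none of the counts above. Its bone and cartilage fibroblast markers summed to 116979.7 CPM in Veh and 117818.9 CPM in Doxo. In the class of that name they summed to 58773.4 and 57770.9 CPM. The unnamed cluster had too few of these markers standing out to take the name. This cluster held 145 Sfrp2 UMIs in 11.4% of its Veh cells (3.79 to 24.6), 58 of them in 1 cell. In Doxo it held 0, in 0% of the cells (0 to 6.49), so the intervals of the shares met. The Sfrp2 log2 ratio had an upper limit of -5.29, which covers counting error alone and not the spread between cells. Dkk3 UMIs in the cluster numbered 37 in Veh against 24 for Doxo (log2 ratio -0.63, -1.44 to 0.14). Sums of at most 14 UMIs, with intervals above a floor of 3 counts, were 11 Wnt4 and 14 Sfrp1 UMIs for Doxo and 11 Sfrp4 UMIs for Veh.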

How the results depend on the processing

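Over 17 alternatives, 632 of 697 recomputed ratios stayed within the counting interval of the reported value. Part of that count was fixed in advance. Changing the minimum of UMIs leaves every ratio as it was, and leaving out a subcluster leaves the classes without its cells as they were. The count is thus no measure of stability by itself. Beside the 3 lower and 6 higher pairs reported, the counts were 7 and 12 with no minimum of UMIs, and 3 were higher after thinning, which left 24 measured pairs. The pairs added without a minimum have under 20 UMIs each. The share of all genes past 2-fold was not computed under these settings, so their counts have no background to be read against. The ratio of Sfrp4 in osteoblast-like cells turned to -1.21 under a stricter cell filter (1000 or more genes, mitochondrial share up to 5%) and to -1.0 with 20 components, and that of Sfrp1 in chondrocyte-like cells turned to 0.17 in marker-gated cells; the cause was not tested. Sfrp1 in CAR-like cells ranged from 0.80, without the cytokine-led subcluster, to 1.43, after thinning, and Sfrp4 there from -0.83 to -0.67. The class with the highest level, over both libraries together, was the same in 124 of 130 recomputed levels, some of them in classes that the setting left as they were. The exceptions were Wnt5a, Wnt5b and Sfrp2, highest in osteoblast-like cells when gated on markers, and Dkk3, highest in bone and cartilage fibroblast-like cells after thinning, at resolution 0.2 and with marker gates. Sfrp4 in chondrocyte-like cells ranged from -3.65 to -1.05. Leaving out the fullest cell of each gene, the CAR-like subcluster with most UMIs per cell, or the Tnn and Lum subcluster, whose marker name differed from its class, was added after seeing the data. At resolution 0.2 bone and cartilage fibroblast-like cells numbered 732 and 818, since unnamed subclusters split off. No paired analysis was possible because each condition has 1 library.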
